A study of Mus musculus with 6 samples.

Results

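Gm43482, Gm26887, AA474408 and 5930403N24Rik are 4 noncoding mouse loci that were read out in microglia. They were chosen by name from the 55493 genes of the count table because their reads were lower with the anti-LILRB4 antibody in these same libraries. All 4 were found, and all 4 were among the 18210 genes that passed the filter on low counts. The values that chose them are the treatment differences themselves, so those differences are given below as a description, with no test. No cut-off defined the choice.

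RNA came from microglia sorted as CD45low CD11b+ cells from a piece of each brain, with 3 libraries from each group. All mice were male, 4 months old when treatment began, and carried the ILT Telo Tg and 5XFAD transgenes, so the controls share both. Each group received weekly intraperitoneal injections at 60 mg/kg, 8 in all, of an Fc-mutant antibody: ZM3.1 against ILT3, another name of LILRB4, or the control 27D6. 5XFAD is a mouse model of amyloid deposition driven by transgenes expressed in neurons, and ILT Telo Tg brings human LILR genes, which have rows of their own in the count table. LILRB4 is an inhibitory receptor of myeloid cells. Whether each library is a mouse of its own is not in the labels, so the error terms measure the spread between libraries, which may in part be technical. Fewer cells of a kind and less RNA per cell cannot be told apart in bulk RNA.

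Long noncoding RNAs are transcripts that carry no recognised protein. Some are spliced and lie between genes (lincRNA), some run away from the start of a coding gene on the opposite strand, and many single-exon models lie inside the introns of other genes. GENCODE labels such models TEC where the evidence that they are genes of their own is still incomplete, and processed transcript where a spliced RNA has no reading frame assigned. A nested model and the unspliced RNA of its host cover the same bases on the same strand, and reads of one cannot be told apart from reads of the other. The levels of hosts and neighbours are therefore given with those of the 4 loci, for which no role in microglia is given as background.

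The 4 loci differ in structure. Positions are those of GENCODE M21 on GRCm38. Gm43482 (ENSMUSG00000106757, TEC) is 1 exon of 1861 bases at chr5:129964366-129966226 on the plus strand. It lies within intron 1 of Vkorc1l1 on the same strand and shares 0 exon bases with it. In the first listed transcript of Vkorc1l1 that intron is 36153 bases long, and the locus begins 22000 bases after its start and ends 12292 bases before its end. Gm26887 (ENSMUSG00000097120, lincRNA) has 2 exons with 547 bases in all at chr8:84192774-84197667 on the minus strand, and overlaps no tested gene. AA474408 (ENSMUSG00000073867, TEC) is 1 exon of 3339 bases at chr7:110057987-110061325 on the minus strand. It runs away from Zfp143, with 109 exon bases in common through 1 of the 5 annotated Zfp143 transcripts only, and also lies in intron 2 of the antisense gene 1600010M07Rik. 5930403N24Rik (ENSMUSG00000046463, processed transcript) has 4 transcripts over 4924 exonic bases at chr10:37139402-37151315 on the plus strand. It begins 482 bases from Marcks and is transcribed away from it.

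The sequences below show the splice junction of Gm26887 and the stretch of AA474408 that another gene resembles, 5′ to 3′ on the strand of the locus or promoter. The Gm26887 junction joins 60 bases of exon 1 to 60 bases of exon 2, in capitals, and spans chr8:84193098-84197564. The AA474408 stretch, chr7:110059666-110059758, has in capitals the 53 bases that align at 98.1% identity to another noncoding gene, Gm15564. Gm15564 was 1 of 25 other genes that align to some part of AA474408 over at least 50 bases at 95% identity or more. Whether reads of any of these genes were counted on AA474408 was not tested. The transcript sequences are those of GENCODE M21.
Gm26887 junction: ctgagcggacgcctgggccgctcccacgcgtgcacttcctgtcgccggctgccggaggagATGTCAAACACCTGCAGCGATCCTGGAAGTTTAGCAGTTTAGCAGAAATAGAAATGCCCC
AA474408 stretch: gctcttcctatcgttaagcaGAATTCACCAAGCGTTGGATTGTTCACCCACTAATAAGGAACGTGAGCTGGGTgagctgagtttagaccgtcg

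A pair of promoter windows shows the divergent arrangements, from the RefSeq promoter table (GRCm38.p6), which holds 5930403N24Rik alone of the 4 loci. In the first of its 3 windows, chr10:37139282-37139581 on the plus strand, capitals mark the 180 bases that fall inside the GENCODE model. In the first Zfp143 window, chr7:110061452-110061751 on the plus strand, which lies just upstream of AA474408, capitals mark the 50 bases from the Zfp143 start onward.
5930403N24Rik promoter: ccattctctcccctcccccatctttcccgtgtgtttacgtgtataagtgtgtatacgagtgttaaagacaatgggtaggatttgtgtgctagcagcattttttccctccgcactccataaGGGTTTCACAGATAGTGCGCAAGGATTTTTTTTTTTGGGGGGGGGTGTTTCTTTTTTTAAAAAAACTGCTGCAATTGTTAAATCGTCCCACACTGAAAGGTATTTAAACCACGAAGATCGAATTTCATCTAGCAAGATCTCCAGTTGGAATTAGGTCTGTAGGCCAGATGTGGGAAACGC
Zfp143 promoter: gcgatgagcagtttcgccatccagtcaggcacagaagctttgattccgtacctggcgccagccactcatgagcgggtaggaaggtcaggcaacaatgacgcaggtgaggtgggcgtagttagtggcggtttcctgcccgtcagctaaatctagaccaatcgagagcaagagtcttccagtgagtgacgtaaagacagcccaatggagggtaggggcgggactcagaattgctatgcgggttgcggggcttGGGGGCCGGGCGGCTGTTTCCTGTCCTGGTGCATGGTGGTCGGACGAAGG

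The 5930403N24Rik windows had a GC content of 43.0%, 65.7% and 47.7%, and the Zfp143 window printed above 58.7%, beside a median of 52.7% over 32851 promoters. A search on both strands for PU.1 (GAGGAAGT), AP-1 (TGANTCA), CRE (TGACGTCA), C/EBP (TTGCNNAA), the interferon response element and the TATA box (TATAAA) found 0 matches in any of these windows. Of all promoters of this length 3.20%, 7.81%, 1.79%, 10.8%, 3.44% and 13.6% hold these letters, in that order. An absent match says only that these letters are not in the window.

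Little of the 4 sequences is shared with other annotated transcripts. Of the 50-base words of each locus, 0 of 498 in Gm26887 and 0 of 4924 in 5930403N24Rik occur in a transcript of another gene. In Gm43482 the count was 15 of 1812 (0.828%), and in AA474408 93 of 3290 (2.83%), the latter including the exon that overlaps Zfp143. Stretches that align to at least 20 other genes, as repeats do, cover 282 bases (15.2%) of Gm43482, 181 bases (5.42%) of AA474408, 122 bases (3.08%) of the longest 5930403N24Rik transcript and 0 of Gm26887. How the authors counted reads that match several genes is not given in the sources used here. Gm15564, which resembles the AA474408 stretch printed above and was looked up after the match was seen, stood at 932 ± 44.4 CPM (SD, n = 3) in controls and 862 ± 91.1 CPM (SD, n = 3) in treated libraries, and its groups overlapped.

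Total counts per library were between 39805118 and 56345514. CPM is the read count scaled to a common library size, after TMM normalization. The sum of 8 microglia markers was 36992 to 39171 CPM in controls and 39515 to 40262 CPM in treated libraries, while 5 neuron markers summed to at most 1.24 CPM. Over all 18210 genes the edgeR quasi-likelihood test called 0 (0%) in either direction at a Benjamini-Hochberg adjusted p of 0.05, with a smallest adjusted p of 0.385. At an unadjusted p under 0.05 it held 712 lower (3.91%) and 751 higher genes (4.12%). DESeq2 called 85 lower (0.553%) and 84 higher (0.546%) of 15378.

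Gm43482, the intronic locus, had the widest difference of the 4. It stood at 2.74, 2.60 and 1.89 CPM in controls 1 to 3 and at 0.155, 0.245 and 0.291 CPM in anti-LILRB4 libraries 1 to 3. In reads this was 121, 105 and 83 against 7, 14 and 12. The lowest control was 6.48 times the highest treated library. The means were 2.41 ± 0.455 CPM (SD, n = 3) and 0.231 ± 0.0693 CPM (SD, n = 3), so that treated libraries held 9.57% of the control level, a log2 fold change of -3.37 (SE 0.49). The treated libraries lay at the edge of the count filter, 0.225 CPM, which 2 of the 3 reached, so that the locus was retained on the strength of its controls.

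Gm26887, the spliced lincRNA, came next. Its controls held 7.05, 5.70 and 4.62 CPM and its treated libraries 1.02, 1.05 and 1.65 CPM, from 203 to 312 and 46 to 68 reads. Control 1 was the highest and the groups did not overlap, with the lowest control at 2.80 times the highest treated library. The means were 5.79 ± 1.22 CPM (SD, n = 3) and 1.24 ± 0.356 CPM (SD, n = 3), or 21.4% of the control level, a log2 fold change of -2.22 (SE 0.34).

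The 2 abundant loci differed less. AA474408 was read at 52.5, 45.9 and 47.0 CPM in controls and 30.1, 28.6 and 23.0 CPM with anti-LILRB4, from 949 to 2324 reads. Its treated mean, 27.3 ± 3.74 CPM (SD, n = 3), was 56.3% of the control mean of 48.5 ± 3.56 CPM (SD, n = 3), a log2 fold change of -0.83 (SE 0.15). 5930403N24Rik, the divergent partner of Marcks, was read at 99.8, 84.1 and 74.5 CPM in controls and 48.8, 52.3 and 53.2 CPM with anti-LILRB4. Its treated libraries were close together at 51.4 ± 2.31 CPM (SD, n = 3), or 59.7% of a control mean that varied more, 86.2 ± 12.8 CPM (SD, n = 3). The log2 fold change was -0.75 (SE 0.14). The lowest control exceeded the highest treated library by a factor of 1.52 for AA474408 and 1.40 for 5930403N24Rik.

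**Figure D1:**
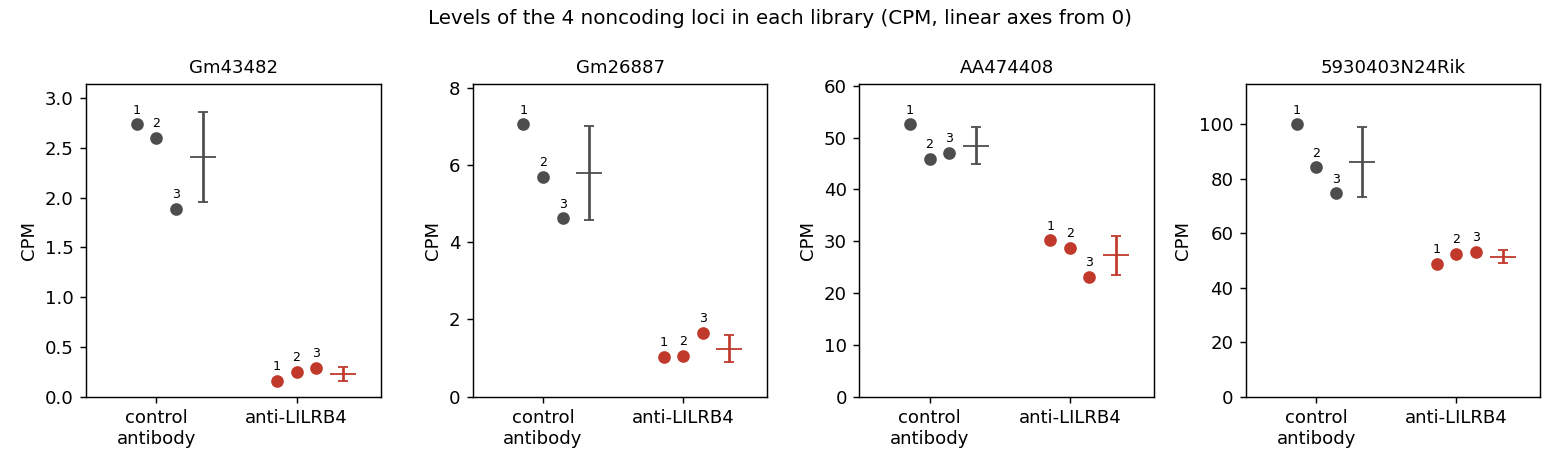
CPM (linear axes from 0) of Gm43482, Gm26887, AA474408 and 5930403N24Rik in each library, with the replicate number above each point and the mean ± SD (n = 3) as a bar beside it. In each panel the 3 control libraries lie above the 3 anti-LILRB4 libraries, and control 1 is the highest.

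The groups did not overlap at any of the 4 loci. Over all tested genes, 7.79% had every treated library below every control and 6.94% the opposite. Since the loci were chosen on this contrast, nothing is read from their own count of 4. Of the 18210 tested genes, 16 had a lower log2 fold change than Gm43482, 78 than Gm26887, 1104 than AA474408 and 1327 than 5930403N24Rik. These ranks go by size alone and take no account of the error of each gene. The authors' deposited table gives log2 fold changes of -3.38, -2.22, -0.83 and -0.74 for the 4 loci in this order.

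Per kilobase of exon the order of the loci was the same as in CPM. In controls 5930403N24Rik stood at 17.5 ± 2.60 CPM per kb (SD, n = 3), AA474408 at 14.5 ± 1.07, Gm26887 at 10.6 ± 2.23 and Gm43482 at 1.29 ± 0.245. The control libraries of 5930403N24Rik and AA474408 overlapped on this scale. The first 3 levels exceeded those of 85.7%, 83.5% and 79.2% of tested genes, and that of Gm43482 36.4%. With anti-LILRB4 the values were 10.4 ± 0.468, 8.17 ± 1.12, 2.27 ± 0.651 and 0.124 ± 0.0372 CPM per kb.

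The neighbours of the loci were not used in choosing them and could be tested. Within 250 kb of the 4 loci GENCODE lists 81 genes, of which 53 were tested: 20 around Gm43482, 21 around Gm26887, 10 around AA474408 and 2 around 5930403N24Rik. None (0 of 53) was called by edgeR, where the smallest adjusted p was 0.534, and DESeq2 also called 0. Their median log2 fold change was -0.00050, with 27 of 53 below 0, beside -0.0068 over all tested genes. By locus the medians were 0.01, -0.10, 0.05 and -0.02. At an unadjusted p under 0.05 there were 2 lower and 3 higher neighbours, against 3.91% and 4.12% of all tested genes. These 5, named after their values were seen, were Samd1 (log2 fold change -0.86) and the antisense gene C330011M18Rik (-0.92) among the lower, and Rfx1 (1.43), Cc2d1a (0.81) and Crcp (0.47) among the higher. Rfx1 encodes a DNA-binding transcription factor and Crcp a subunit of RNA polymerase III. C330011M18Rik overlaps the start of Rfx1 on the other strand, and the library kit does not mark strand, so reads in the overlap cannot be told apart. In 5 of the 53 neighbours every treated library was below every control, and in 3 above, against 7.79% and 6.94% of all tested genes.

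**Figure D2:**
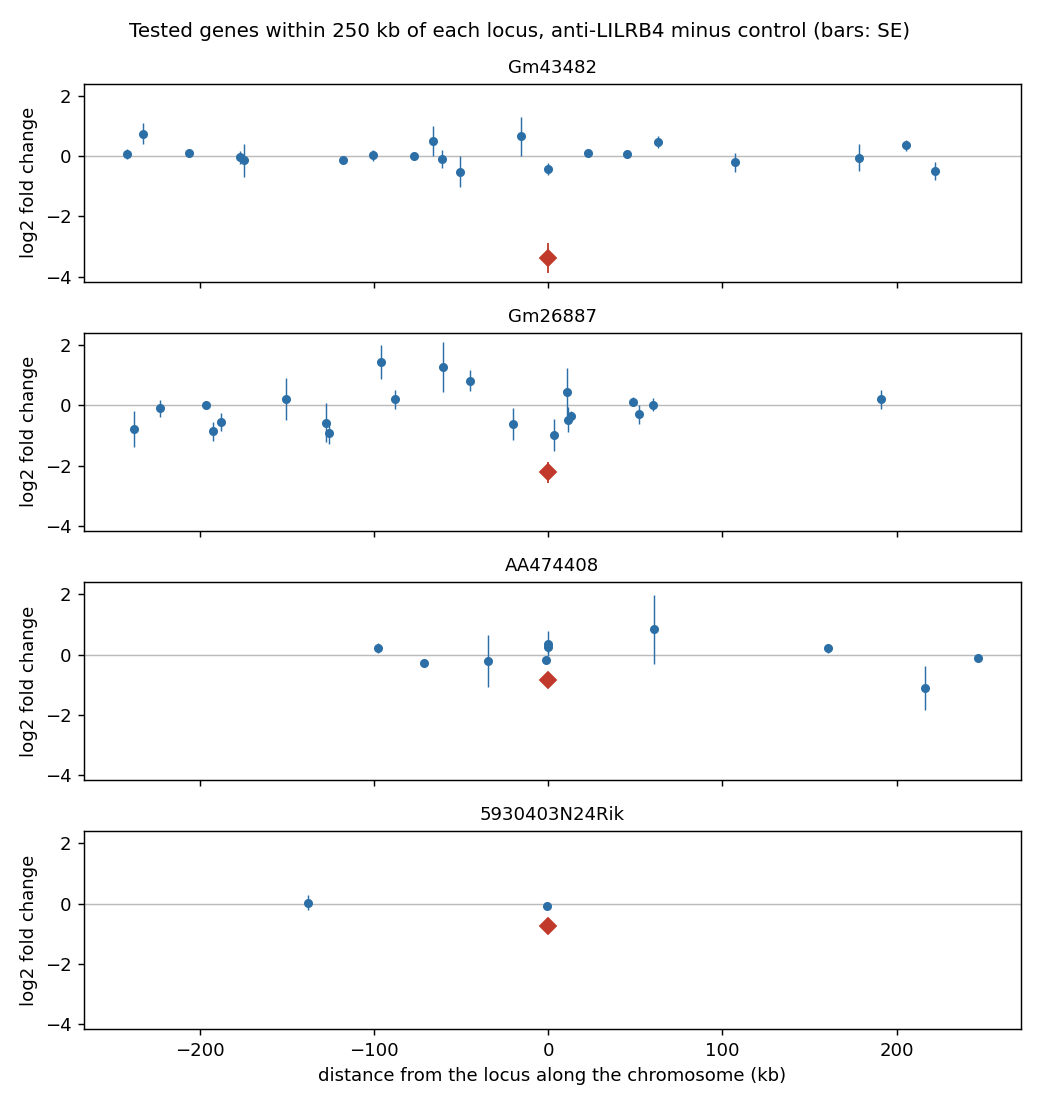
Log2 fold change (anti-LILRB4 minus control, with SE) of each tested gene within 250 kb of Gm43482, Gm26887, AA474408 and 5930403N24Rik, against distance from the locus in kb, with the locus as a red diamond at 0 and neighbours as blue points. Overlapping genes are drawn at 0, and the neighbours spread between -1.11 and 1.43.

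Vkorc1l1, which encodes a vitamin K epoxide reductase and hosts Gm43482 in its first intron, was read at 19.7, 13.1 and 20.0 CPM in controls and 12.7, 12.9 and 13.8 CPM in treated libraries. Its groups overlapped through control 2, and its log2 fold change of -0.42 (SE 0.21) did not pass the edgeR test (adjusted p = 0.643). Gm43482 held 13.9%, 19.8% and 9.46% of the CPM of its host in controls and 1.22%, 1.89% and 2.11% in treated libraries, 14.4 ± 5.19% against 1.74 ± 0.465% (SD, n = 3). The share of reads on the intronic model relative to its host thus did not overlap between groups. Its numerator is the level that chose the locus, so the separation is a description and not a test. This ratio, like those below, is in CPM and not per length, so it compares libraries and not the abundance of 2 genes. On either side, Gm42986, another TEC model 15402 bases away, had a log2 fold change of 0.66 (adjusted p = 0.830 in edgeR), which was -0.00042 without anti-LILRB4 replicate 1. Gusb, the lysosomal β-glucuronidase gene 22785 bases away, had one of 0.10 (adjusted p = 0.846 in edgeR).

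Around Gm26887, the nearest tested gene was Gm37352, a TEC model 3202 bases away on the other strand, at 2.22 ± 0.886 CPM (SD, n = 3) in controls and 1.11 ± 0.667 CPM (SD, n = 3) in treated libraries. Its groups overlapped and its log2 fold change of -0.995 (SE 0.53) did not pass the edgeR test (adjusted p = 0.676). On the other side, 4930432K21Rik, 20184 bases away, had a log2 fold change of -0.61 (adjusted p = 0.810 in edgeR). Zswim4, a zinc finger SWIM domain gene 13011 bases away on the same strand and added here after its values were seen, was read at 17.5, 17.0 and 18.7 CPM in controls and 13.4, 14.4 and 13.6 CPM with treatment. Its groups did not overlap, but its log2 fold change of -0.36 (SE 0.17) did not pass the edgeR test (adjusted p = 0.631). Gm26887 held 40.4%, 33.6% and 24.8% of the CPM of Zswim4 in controls and 7.62%, 7.30% and 12.1% in treated libraries. Relative to Gm37352, its nearest tested gene, it held 238%, 460% and 188% in controls and 54.8%, 118% and 283% in treated libraries. On that ratio the groups overlapped through anti-LILRB4 replicate 3.

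The microRNA genes close to Gm26887, named with Nanos3 after their counts were seen, were almost unread. The microRNA counts are of reads on the gene models, and the levels of mature microRNAs were not measured. Mir181c had 0 reads in every library and Mir181d had 2 reads in anti-LILRB4 library 2 alone. Mir27a had 1, 3 and 13 reads in controls and 7, 2 and 6 in treated libraries. Nanos3, a germ cell gene 7557 bases away, had 14 reads in anti-LILRB4 library 2 and at most 2 in any other. None of these 4 passed the count filter. Mir23a, 10851 bases away and also named after its values were seen, did pass it. It was at most at 0.297 CPM in any library, with a log2 fold change of 0.45 (adjusted p = 0.919 in edgeR).

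AA474408 faces Zfp143, which encodes a zinc finger transcription factor. Zfp143 was read at 19.7, 33.3 and 28.8 CPM in controls and 28.0, 36.3 and 33.0 CPM in treated libraries. The groups overlapped, and the log2 fold change was 0.25 (SE 0.20, adjusted p = 0.796 in edgeR). AA474408 held 267%, 138% and 163% of the CPM of Zfp143 in controls and 108%, 78.9% and 69.7% with treatment. The library kit marks no strand, so reads anywhere in the 3339 bases of the locus cannot be assigned to a strand. The 109 exon bases shared with Zfp143 are a small part of that length. The whole locus also lies in an intron of 1600010M07Rik, and unspliced reads of that gene cannot be told apart from reads of AA474408. Ipo7, an importin gene 1378 bases beyond the other end, was read at 62.4, 68.9 and 71.3 CPM in controls and 66.8, 56.0 and 55.5 CPM with treatment, a log2 fold change of -0.18 (SE 0.13, adjusted p = 0.764 in edgeR). AA474408 was at 72.2 ± 10.4% of Ipo7 in controls and 45.9 ± 4.87% in treated libraries (SD, n = 3). The host antisense gene 1600010M07Rik had a log2 fold change of 0.36 (adjusted p = 0.860 in edgeR), and Wee1, a cell cycle kinase gene 60721 bases away, one of 0.83 on less than 2 CPM in every library (adjusted p = 0.889 in edgeR).

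Marcks, a substrate of protein kinase C that binds actin and the cell membrane, was read at 1658, 1839 and 1710 CPM in controls and 1477, 1642 and 1823 CPM in treated libraries. Its groups overlapped, and its log2 fold change was -0.07 (SE 0.09, adjusted p = 0.873 in edgeR). 5930403N24Rik held 6.02%, 4.57% and 4.36% of its CPM in controls and 3.30%, 3.18% and 2.92% with treatment, 4.98 ± 0.906% against 3.13 ± 0.198% (SD, n = 3). The other tested gene within 250 kb, the histone deacetylase gene Hdac2, which was named after its values were seen, had a log2 fold change of 0.03 (SE 0.25, adjusted p = 0.985 in edgeR).

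**Figure D3:**
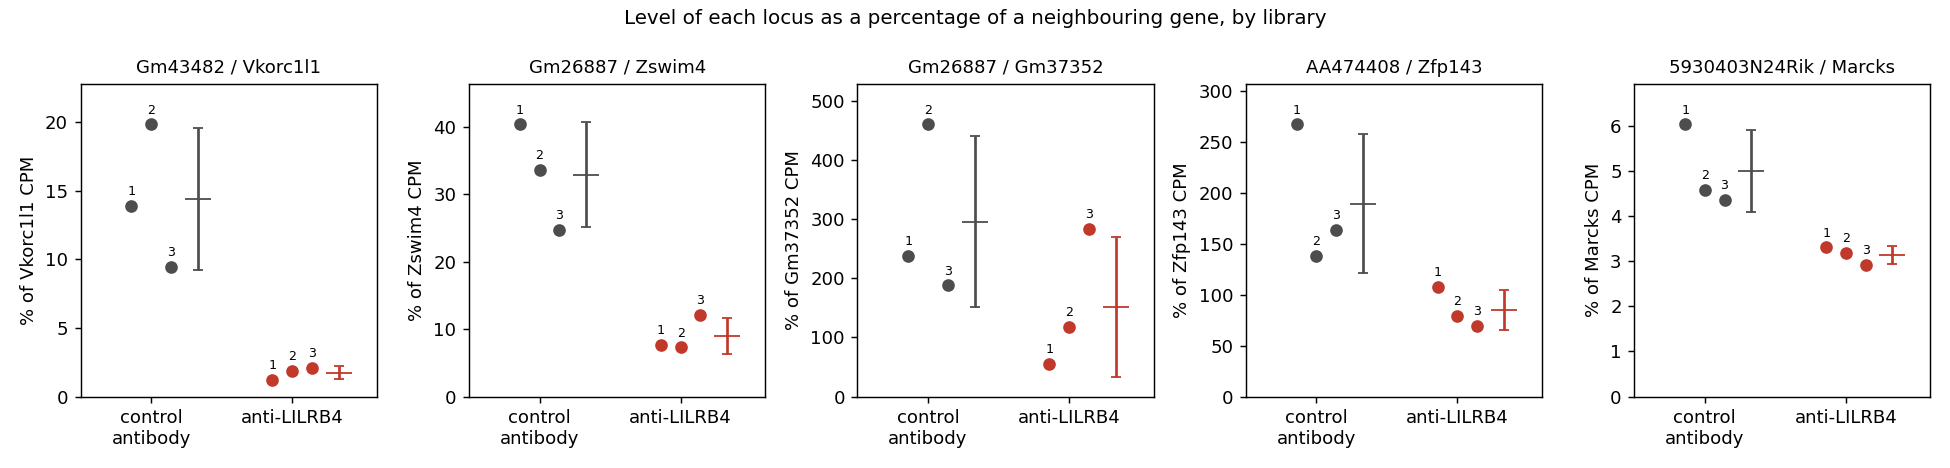
CPM of each locus as a percentage of the CPM of a neighbouring gene in the same library (linear axes from 0, CPM not per length), for Gm43482 and Vkorc1l1, Gm26887 and both Zswim4 and Gm37352, AA474408 and Zfp143, and 5930403N24Rik and Marcks. Points carry the replicate number, the bar beside them is the mean ± SD (n = 3), and the treated libraries lie below the controls in each panel except that of Gm37352, where the groups overlap. Zswim4 was chosen after its values were seen. The numerators are the levels that chose the loci, so the separation is a description and not a test.

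The classes to which the loci belong were described with the 4 left out. The 587 tested lincRNAs had a median log2 fold change of -0.12, with 31 lower (5.28%) and 10 higher (1.70%) at an unadjusted p under 0.05. The 1128 TEC models had a median of -0.07, with 63 lower (5.59%) and 24 higher (2.13%). The 306 processed transcripts had a median of -0.08, with 20 lower (6.54%) and 3 higher (0.98%). The 859 antisense genes had a median of -0.06, with 26 lower (3.03%) and 18 higher (2.10%). In each noncoding class the lower genes outnumbered the higher ones, whereas among 12228 protein-coding genes, with a median of 0.02, 489 were lower (4%) and 677 higher (5.54%). Among all tested genes 3.91% were lower and 4.12% higher. The edgeR test called 0 genes in each class at an adjusted p of 0.05. Single libraries moved these medians. Without anti-LILRB4 replicate 3, whose lincRNAs took 0.727% of counts against 0.924% to 0.983% in the other 5 libraries, the median was 0.02 for TEC models and -0.07 for lincRNAs. That of TEC models was -0.15 without control replicate 1, -0.14 without anti-LILRB4 replicate 1, -0.13 without anti-LILRB4 replicate 2, -0.03 without control replicate 2 and -0.02 without control replicate 3. That of processed transcripts was -0.02 without control replicate 2, and that of lincRNAs was 0.042 when no filter on low counts was used.

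Sets built like some of the loci were described in the same way. Both were drawn up after the positions of the 4 loci were seen. TEC models that lie inside a protein-coding gene on the same strand with no shared exon base, as Gm43482 does, numbered 679, with a median of -0.06, 35 lower (5.15%) and 18 higher (2.65%). Noncoding genes that start within 1 kb of a protein-coding start on the other strand, as 5930403N24Rik and AA474408 do, numbered 542. The rule also admits pairs that overlap at their starts, as AA474408 and Zfp143 do. Their median was -0.23, with 37 lower (6.83%) and 7 higher (1.29%). Of these 542, 342 (63.1%) had a log2 fold change below 0, beside 50.9% of all tested genes. Their 519 tested protein-coding partners had a median of 0.00069, with 21 lower (4.05%) and 38 higher (7.32%). Among all tested genes the shares were 3.91% lower and 4.12% higher. These are counts and medians, and no difference between sets was tested.

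**Figure D4:**
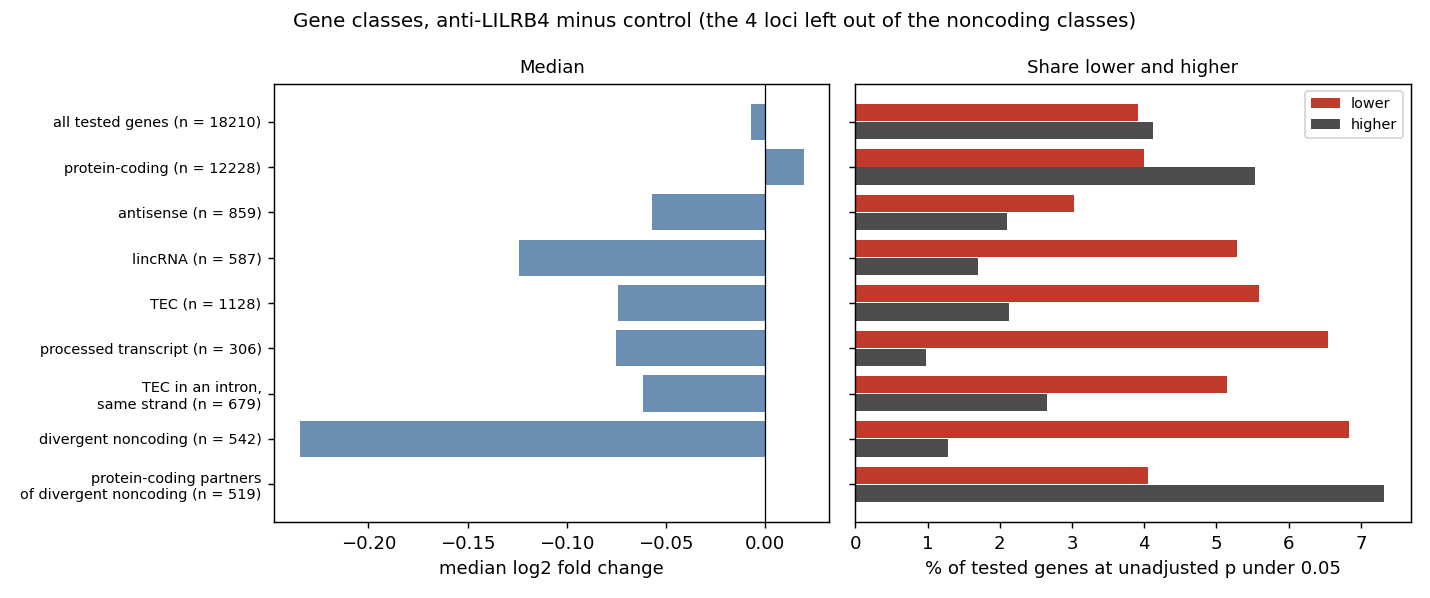
Median log2 fold change (left, anti-LILRB4 minus control) and percentage of tested genes lower (red) or higher (grey) at an unadjusted p under 0.05 (right) for gene classes, with the number of tested genes beside each name. Divergent noncoding genes, by a rule that also admits pairs that overlap at their starts, have the lowest median shown, -0.23. Protein-coding genes have 5.54% higher against 4% lower.

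Known noncoding genes were given by 3 lists. Of 15 nuclear or broadly expressed long noncoding RNAs 11 were tested, with a median log2 fold change of -0.12. At an unadjusted p under 0.05, 1 was lower (9.09%) and 0 higher, against 3.91% and 4.12% of all tested genes. That median was -0.0046 without anti-LILRB4 replicate 3 and -0.19 without anti-LILRB4 replicate 2. The 1 was Meg3, an imprinted RNA, read at 0.972, 0.992 and 1.75 CPM in controls and 0.199, 0.368 and 0.364 CPM with treatment, a log2 fold change of -1.99 (SE 0.59) that missed the adjusted threshold (adjusted p = 0.477 in edgeR). Malat1, the abundant nuclear RNA of most cells, had a log2 fold change of -0.11 (adjusted p = 0.860 in edgeR), and Pvt1, the RNA beside Myc, one of -0.30 (adjusted p = 0.699 in edgeR).

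Of 15 host genes of small nucleolar RNAs 13 were tested, with a median of -0.16, 3 lower (23.1%) and 0 higher at an unadjusted p under 0.05, against 3.91% and 4.12% of all tested genes. The median was -0.29 without anti-LILRB4 replicate 3, -0.27 without anti-LILRB4 replicate 1, -0.24 without control replicate 3 and -0.09 without control replicate 1. Among them Gas5 was read at 326, 238 and 244 CPM in controls and 211, 184 and 202 CPM with treatment, a log2 fold change of -0.44 (adjusted p = 0.506 in edgeR), and Snhg12 had one of -0.54 (adjusted p = 0.576 in edgeR). Of 7 microRNA host genes 4 were tested, with a median of 0.24 and 0 lower or higher. That median lay between -1.1e-05 (without anti-LILRB4 replicate 1) and 0.12 (without control replicate 2) when any library other than control replicate 1 was left out. Mir99ahg, the most abundant of these, had a log2 fold change of -0.05, Mir22hg one of 0.44 and Mir17hg one of 0.66. None of the 3 lists held a gene called by edgeR.

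The genes whose log2 CPM ran most like each locus over the 6 libraries were sought among 10433 genes. They share the libraries and the contrast that chose the loci, so these are descriptions. For Gm43482 they were Brd9 (Pearson r 0.989), Ppt2 (0.989) and Plgrkt (0.988). Gm26887 had Fbxw4 (0.996), Thnsl1 (0.993) and Ppt2 (0.991). For AA474408 they were Snx13 (0.997), the mitochondrial cytochrome b gene mt-Cytb (0.992) and the potassium channel gene Kcnj2 (0.991). 5930403N24Rik had the complement receptor gene C5ar1 (0.995), the TEC model Gm37776 (0.995) and Plgrkt (0.993). After each group mean was subtracted, r was lowest for Gm43482 with Brd9, 0.56, and between 0.75 and 1.00 for the others.

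Kcnj2 was read at 87.4, 68.7 and 77.4 CPM in controls and 42.9, 40.1 and 35.1 CPM with treatment, and C5ar1 at 1222, 1116 and 1096 CPM against 863, 892 and 912 CPM. Gm37776 was read at 16.9, 13.2 and 12.4 CPM in controls and 6.27, 6.96 and 6.77 CPM with treatment. In each of the 3 genes the groups were separate and control 1 was the highest, as at the 4 loci. The 3 were picked for running like a locus over these libraries, so this likeness follows from the choice. Over all tested genes 7.79% had every treated library below every control.

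A pair of other gene sums was also lower with treatment, without a test of the sum. The 37 mitochondrially encoded genes summed to 37766 to 47683 CPM in controls and 27604 to 32341 CPM with treatment, and 18 immediate early and dissociation genes to 951 to 1057 CPM and 806 to 841 CPM, neither with overlap. The 11 neutrophil markers summed to 569 to 1333 CPM in controls and 133 to 1129 CPM with treatment, with overlap, and 5 monocyte markers to 43.3 to 89.8 CPM and 26.3 to 67.2 CPM. No listed marker was at 0 in all libraries. The part of these sums in the levels of the 4 loci was not tested.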

How the data were processed

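Microglial RNA of 6 libraries, 3 per group, was converted to cDNA from 10 ng with a low-input kit that marks no strand, per the labels' protocols. The authors deposited raw counts of reads, 1 row per Ensembl gene. STAR, featureCounts of Subread, Salmon and DESeq2 1.38.3 are listed in the submitters' processing notes with no roles. The build and annotation behind the counts were not given in the sources used here. A second deposited table, per the file headers from DESeq2, holds a mean normalized count signal, a log2 fold change with its error, a score and p-values by the authors; its log2 fold changes are quoted.

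Groups and replicate numbers came from the sample titles. From the counts, 287 rows with a repeated identifier and identical values were dropped. edgeR 4.0.16 (R 4.3.3) was run with filterByExpr (minimum count 10), TMM and the quasi-likelihood F test without covariates on 18210 genes, with Benjamini-Hochberg adjustment over all of them. Log2 CPM used a prior count of 2. DESeq2 1.42.0, limma-voom 3.58.1, other scalings and filters, a replicate block and leaving out each library were alternatives. The fit was checked on simulated data. Positions, exons and transcripts were read from GENCODE M21 by Ensembl identifier, sequences were aligned with BLAST 2.17.0, and promoters came from RefSeq.

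The members, gene lists and tests were chosen with earlier results of these data known. Genes named are the 4 loci, tested genes that overlap them and the nearest tested gene on each side. Also named are the 3 genes most alike per locus with a mean log2 CPM of at least 2. From each list the 2 with the smallest unadjusted p and the most abundant are named. Gm15564 was named for its sequence match, and others are named as chosen after their values were seen. Replicates of a group differed by more than sampling noise in every pair. Counting error alone is small for the 2 abundant loci and large for Gm43482 with treatment, at 7 to 14 reads. The sequence of 1 stretch is not reported here.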

Additional observations from a re-analysis of the deposited data

How the results depend on the processing

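Each of the 4 loci kept a negative log2 fold change under the 15 alternatives run. It lay between -3.56 and -3.16 for Gm43482 and between -2.48 and -2.06 for Gm26887. For AA474408 it lay between -0.91 and -0.72, and for 5930403N24Rik between -0.84 and -0.63. The loci were chosen on this contrast and their groups did not overlap, so leaving out 1 library could not have changed the sign. Among all genes, edgeR called 0 in either direction in each setting that kept a filter on low counts. DESeq2, with the filter, called 85 lower and 84 higher. With no filter on low counts edgeR called 117 lower and 183 higher of 35404 genes. Without that filter 1 neighbour within 250 kb was called, Rfx1 (log2 fold change 1.44, edgeR adjusted p = 0.0209), and the medians were 0.042 for lincRNAs and -0.039 for microRNA host genes. Upper quartile scaling gave protein-coding genes a median of -0.011. Leaving out 1 library at a time, the median of the 4 microRNA host genes ran from -1.1e-05, without anti-LILRB4 replicate 1, to 0.18. In the same way Gm42986 ran from -0.00042, without anti-LILRB4 replicate 1, to 0.99. Other neighbours also moved with 1 library left out, by differing amounts and with no change of sign. Wee1 ran from 0.25 to 3.20, 4930432K21Rik from -1.16 to -0.20, 1600010M07Rik from 0.08 to 0.77 and Zfp143 from 0.07 to 0.43. Gusb ran from 0.02 to 0.16, Gm37352 from -1.58 to -0.69 and Marcks from -0.15 to -0.00051. The cause of these shifts was not tested. With the replicate block 0 genes were called lower and 0 higher, and the deviations of same-numbered libraries correlated at 0.068, 0.170 and -0.041 over 10435 genes, so the numbers were not treated as pairs.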

Other observations

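Rn7sk, the small nuclear RNA that holds the elongation factor P-TEFb inactive, was looked up after its values were seen. It was read at 21.1, 11.6 and 12.9 CPM in control libraries and 7.49, 4.96 and 7.48 CPM with anti-LILRB4, with control 1 the highest and no overlap between groups. Its log2 fold change of -1.19 (SE 0.29) did not pass the edgeR test over all genes (adjusted p = 0.426). The ribosomal RNA locus CT010467.1, also looked up after its values were seen, had a log2 fold change of -0.02 (adjusted p = 0.987 in edgeR) with overlapping groups.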
